A study of Mus musculus with 20 samples.

Results

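The 7 mouse sirtuin genes, Sirt1 to Sirt7, were followed in the intervertebral disc of old mice treated with MDL-800. They were taken from the deposited expression table by gene symbol, which matched 7 of its 51789 genes. All 7 passed the filter on low values, as did 16383 genes in all. RNA came from the nucleus pulposus (NP), which is the soft gel at the centre of the disc, and from the annulus fibrosus (AF), its surrounding layers of fibrous tissue. All mice were BL6, and all were killed at 24 months of age. From 18 months on they had received intraperitoneal injections every week for 6 months, either of DMSO (vehicle) or of MDL-800 in the same amount of DMSO, so every group had DMSO and no group was untreated or young. With 2 tissues and 2 treatments there were 4 groups of 5 libraries, and a library is named here by the number in its title. The labels do not say that each library was a separate animal, so the tests measure only the spread between these libraries.

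Sirtuins remove acyl groups from lysines and use NAD as a co-substrate, which ties them to the metabolic state of the cell. SIRT1, SIRT6 and SIRT7 are found mainly in the nucleus, SIRT7 in the nucleolus, SIRT2 mainly in the cytoplasm, and SIRT3, SIRT4 and SIRT5 in mitochondria. SIRT6 deacetylates histone H3, takes part in DNA repair and represses glycolytic genes that HIF1A drives. MDL-800 is a small molecule known as an activator of the SIRT6 enzyme. The NP is avascular and relies on glycolysis, and its cells hold HIF1A under normal conditions. The values below are transcript levels and do not measure enzyme activity.

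Levels are given as scaled FPKM: the deposited fragments per kilobase of transcript, relative to all mapped fragments, divided by a factor for each library. Differences are on the log2(scaled FPKM + 1) scale, which understates changes of low genes. A gene was called higher or lower at a limma adjusted p under 0.05 over all genes tested. The depth of the libraries, estimated from the steps in the low values, was 12.8 to 22.2 megafragments. That gives an estimated 86 to 2260 fragments for a sirtuin in a library, lowest for Sirt6, where counting alone gives an error of up to 10.8%. Markers of NP summed to 25608 to 30783 scaled FPKM in NP with vehicle and 27930 to 32845 with MDL-800, against 2493 to 15085 in AF vehicle and 3645 to 7507 in AF MDL-800. AF markers summed to 784 to 1561 scaled FPKM in NP vehicle and 2527 to 7132 in AF vehicle. Each list thus summed higher in the tissue it names than in the other tissue, but each tissue also held markers of the other. Within AF, NP markers had the larger median sum, 5845 against 4975 for AF markers with vehicle and 6348 against 4660 with MDL-800. By gene, 6 of 7 tested NP markers were called higher in NP and 1 lower, with both treatments. Of 7 AF markers, 0 were called higher in NP, and 6 were called lower with vehicle and 5 with MDL-800. Of all genes, 55.7% were called with vehicle and 62.8% with MDL-800.

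The promoter windows of Sirt6 and Sirt2 are printed because these were the sirtuins whose NP and AF libraries did not overlap under MDL-800. Each runs from 250 bases before to 50 after the RefSeq start, on build GRCm38.p6 and on the strand of the gene, and capitals mark the motifs named below. The Sirt6 window is chr10:81627517-81627816 (minus strand) and the Sirt2 window is chr7:28766502-28766801 (plus strand).
Sirt6: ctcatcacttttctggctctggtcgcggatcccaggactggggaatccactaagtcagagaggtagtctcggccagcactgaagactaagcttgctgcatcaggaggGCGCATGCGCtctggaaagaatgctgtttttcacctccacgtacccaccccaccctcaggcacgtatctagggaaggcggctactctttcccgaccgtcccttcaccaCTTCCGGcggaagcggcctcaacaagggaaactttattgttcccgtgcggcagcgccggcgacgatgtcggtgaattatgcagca
Sirt2: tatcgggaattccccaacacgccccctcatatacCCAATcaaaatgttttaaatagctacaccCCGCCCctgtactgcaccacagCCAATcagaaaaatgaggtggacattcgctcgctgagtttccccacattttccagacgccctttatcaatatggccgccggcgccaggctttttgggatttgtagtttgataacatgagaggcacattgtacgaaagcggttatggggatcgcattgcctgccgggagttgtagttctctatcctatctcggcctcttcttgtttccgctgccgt

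RefSeq held a window for all 7 sirtuins. On both strands, 7 motifs were searched: the GC box GGGCGG, the CCAAT box CCAAT, the TATA box TATAAA, the E-box CACGTG, the cyclic AMP element TGACGTCA, the NRF1 core GCATGCGC and the ETS core CCGGAAG. The Sirt6 window held the NRF1 core 2 times, on both strands and overlapping, and 1 ETS core. Of the 32851 promoter windows in the table, 2.71% hold the first and 8.86% the second. Sirt7 was the one other sirtuin with an NRF1 core (1), and it held 2 ETS cores. Sirt2 had 1 GC box (35.7% of windows) and 2 CCAAT boxes (37.4%). Sirt1 stood apart in composition, with 79.0% GC, 47 CpG and 7 GC boxes, against a median of 52.7% GC and 7 CpG over all windows. Neither the TATA box nor the cyclic AMP element was found in a sirtuin window, and 13.6% and 1.79% of all windows hold them. These matches describe the letters of the windows and show no binding.

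Sirt2 was the most abundant sirtuin transcript in the old disc, in every one of the 20 libraries. It took 43.0% ± 3.89 of the summed sirtuin level in NP with vehicle, 45.8% ± 2.12 there with MDL-800, 37.7% ± 3.00 in AF vehicle and 37.8% ± 2.65 in AF MDL-800 (SD, n = 5 each). Its mean lay above that of 87.2% of the genes tested in NP vehicle and 84.0% in AF vehicle. Sirt7 came next by mean in all 4 groups, and the ranges of Sirt2 and Sirt7 were apart in each. From there the order was not resolved everywhere. In NP vehicle it ran Sirt7, Sirt1, Sirt5, Sirt3, Sirt4 and Sirt6. Among these neighbours only Sirt3 and Sirt4 had ranges apart, and Sirt5 was above Sirt3 in just 2 of 5 libraries. In NP MDL-800 the order was Sirt7, Sirt3, Sirt1, Sirt5, Sirt6 and Sirt4, with overlapping ranges between all neighbours. Both AF groups ran Sirt7, Sirt1, Sirt3, Sirt5, Sirt4 and Sirt6, again with overlap at each step. Sirt6 was therefore the lowest sirtuin in 3 groups: it lay below Sirt4 in 5 of 5 NP vehicle, 5 of 5 AF vehicle and 4 of 5 AF MDL-800 libraries. In NP MDL-800 it lay above Sirt4 in 4 of 5 libraries.

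**Figure D1:**
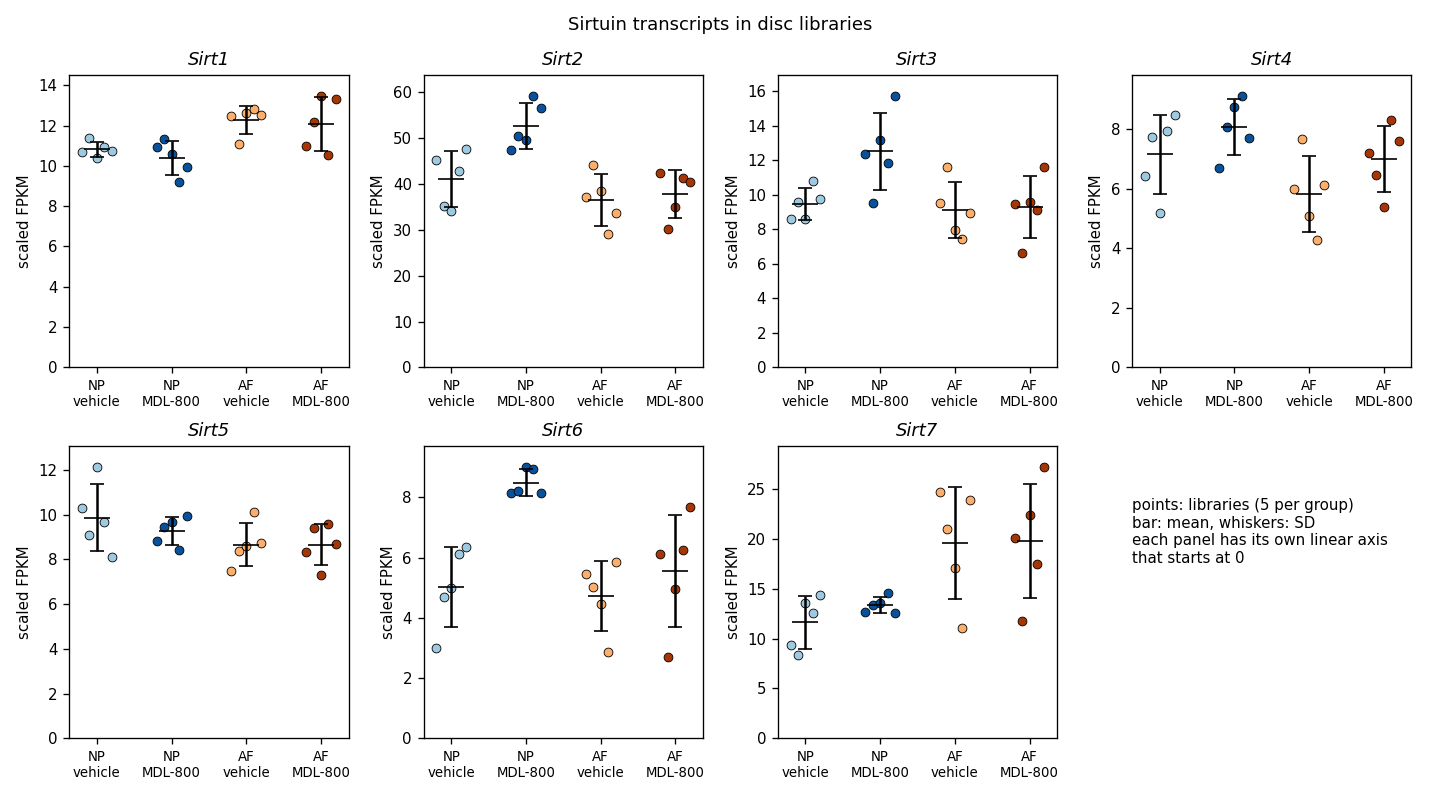
Scaled FPKM of each sirtuin (vertical axis, linear, from 0, with its own range in each panel) in the 4 groups, with points for single libraries and bars and whiskers for the mean and SD of 5 libraries. Sirt6 in NP MDL-800 lies between 8.14 and 9.00, above all 5 NP vehicle libraries, while the Sirt7 points of AF spread from 11.0 to 27.2.

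Of the nuclear sirtuins, Sirt6 (ENSMUSG00000034748, chromosome 10, 81621785 to 81627797 on GRCm38, minus strand, protein-coding) was measured in NP vehicle libraries 1, 2, 3, 5 and 6 at 3.00, 4.70, 5.00, 6.11 and 6.34 scaled FPKM. Under MDL-800 the NP libraries 15, 18, 19, 20 and 22 held 8.14, 8.21, 9.00, 8.94 and 8.14. Every treated library was above every vehicle library, and the treated libraries lay close together, with a coefficient of variation of 5.23% against 26.5%. Sirt6 was at 5.47, 5.01, 4.47, 2.85 and 5.84 in AF vehicle libraries 8, 9, 10, 12 and 13. The AF MDL-800 libraries 25, 27, 28, 29 and 30 held 6.12, 2.69, 4.97, 6.26 and 7.69, so the AF groups overlapped and library 27 was below all vehicle libraries.

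In NP, Sirt6 averaged 5.03 ± 1.33 with vehicle and 8.49 ± 0.444 with MDL-800 (SD, n = 5 each). The difference was 0.68 on the log2 scale (SE 0.15, 95% interval 0.34 to 1.03; limma adjusted p = 0.0820, unadjusted 0.00111), which did not pass the threshold. Over 22 alternatives, single-library omissions included, the difference ran from 0.44 to 0.79 and the adjusted p from 0.0401 to 0.208. It passed in 1 of them, when the fit took only the 11308 genes that reached 1 FPKM in each library. Sirt6 was the only sirtuin whose NP groups did not overlap, which held for 4.50% of all genes tested. Its share of the summed sirtuin level was 5.27% ± 1.18 in NP with vehicle and 7.41% ± 0.414 with MDL-800.

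In AF, Sirt6 averaged 4.73 ± 1.17 and 5.55 ± 1.87, a difference of 0.16 (SE 0.24; limma adjusted p = 1.00). The MDL-800 effect was larger in NP than in AF by 0.52 (SE 0.29, 95% interval -0.09 to 1.13; limma adjusted p = 1.00, unadjusted 0.0907), so a difference between the tissues was not shown. Ankrd24, which starts 743 bases from Sirt6 on the other strand, differed by 0.13 between treatments in NP (limma adjusted p = 0.708). NP and AF vehicle libraries differed by 0.07 in Sirt6 (SE 0.20; limma adjusted p = 0.793), which became 0.23 with upper-quartile scaling and 0.53, past the threshold, with quantile normalization (adjusted p = 0.0325). Under MDL-800, Sirt6 was higher in NP than in AF by 0.59 (SE 0.20; limma adjusted p = 0.0229), with the 2 groups apart (as for 49.1% of all genes). This call held in all 10 fits without a single library (adjusted p 0.00866 to 0.0479).

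The libraries differed in how level moved with GC content, and Sirt6, with 58.4% GC in its longest transcript, was the most GC-rich sirtuin. The GC slope of a library is the change of its log2 values, against the mean of all libraries, per 10 percentage points of gene GC content. It lay between -0.28 and -0.0067 in NP with vehicle and between 0.02 and 0.09 with MDL-800, without overlap, and AF ran from -0.24 to 0.10 with vehicle and from -0.11 to 0.14 with MDL-800. The libraries under a limit of -0.1, set after the values were seen, were NP vehicle 1 and 2, AF vehicle 12 and AF MDL-800 27. Sirt6 was at 3.00 and 4.70 in those 2 NP libraries and at 5.00 to 9.00 in the other 8. In AF it was at 2.69 and 2.85 in the low pair and at 4.47 to 7.69 in the others. With the GC trend of each library removed, the NP difference of Sirt6 between MDL-800 and vehicle was 0.44 (SE 0.12; limma adjusted p = 0.159), and with NP vehicle libraries 1 and 2 left out it was 0.48 (SE 0.10; adjusted p = 0.142). What part the GC slope has in the difference cannot be told apart from the treatment in NP, where it separates the groups.

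**Figure D2:**
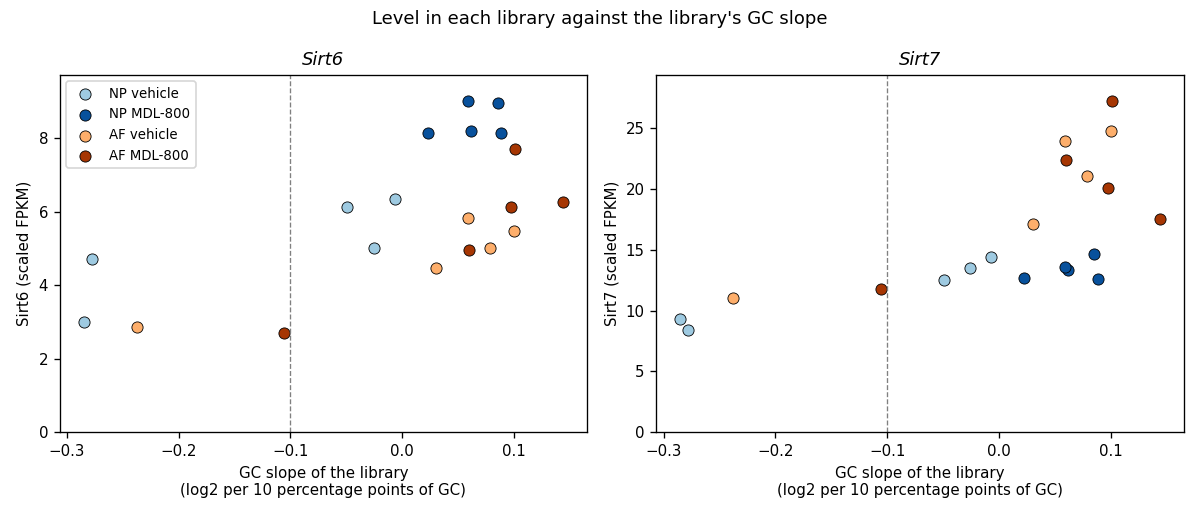
Scaled FPKM of Sirt6 (left) and Sirt7 (right) in each of the 20 libraries against the GC slope of that library (log2 per 10 percentage points of GC), with the dashed line at -0.1. The 4 libraries left of the line hold 2.69 to 4.70 for Sirt6 and 8.39 to 11.8 for Sirt7, the low end of each tissue.

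Sirt7 (ENSMUSG00000025138, chromosome 11, 120618372 to 120625240, minus strand), whose product acts in the nucleolus and on ribosomal RNA transcription, was the sirtuin called between the tissues with vehicle under the scaling used here. It was at 9.34, 8.39, 13.5, 12.5 and 14.4 in the NP libraries with vehicle, in the same order. AF vehicle libraries 8, 9, 10, 12 and 13 held 24.7, 21.02, 17.1, 11.0 and 23.9. Only AF library 12 fell into the NP range. Sirt7 was at 12.7, 13.3, 13.6, 14.6 and 12.6 in NP MDL-800 and at 20.1, 11.8, 22.4, 17.5 and 27.2 in AF MDL-800, where library 27 lay below all NP libraries and the other 4 above them.

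The mean of Sirt7 was 11.6 ± 2.65 in NP and 19.6 ± 5.62 in AF with vehicle (SD, n = 5 each), lower in NP by a log2 difference of -0.68 (SE 0.22; limma adjusted p = 0.0235). The call was lost without NP vehicle library 1 or 2 or without AF vehicle library 8 or 13 (adjusted p 0.00235 to 0.0593 over the 10 omissions), and with upper-quartile scaling (0.0626), quantile normalization (0.0953) or no filter on low values (0.0531). Under MDL-800 the means were 13.4 ± 0.831 and 19.8 ± 5.72, a difference of -0.49 (SE 0.18; limma adjusted p = 0.0339). That call held in 3 of 10 omissions, those of NP MDL-800 library 20 and of AF MDL-800 libraries 27 and 29 (adjusted p 0.00101 to 0.0780), and was lost under the same 3 settings (0.125, 0.192 and 0.0681) and with all 4 groups in the fit (0.0508). With the libraries of low GC slope left out, Sirt7 was lower in NP by -0.64 with vehicle (adjusted p = 0.00893) and by -0.65 with MDL-800 (adjusted p = 0.00101). The MDL-800 value is the omission of AF library 27 given above. The slope limit was set after the values were seen, and every library it leaves out was at the low end of its group in Sirt7. These 2 values are therefore no separate support for the calls. Between treatments Sirt7 differed by 0.21 in NP (SE 0.14; adjusted p = 0.540), where the value was -0.01 without the 2 libraries of low GC slope, and by 0.02 in AF (SE 0.25; adjusted p = 1.00). Mafg, which overlaps Sirt7 on the same strand with 124 shared exon bases out of the 5148 of Sirt7, was also lower in NP, by -0.94 with vehicle (limma adjusted p = 0.00418) and by -0.86 with MDL-800 (adjusted p = 0.000403). How reads in the overlap were assigned is not given in the sources used here.

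Sirt1 (ENSMUSG00000020063, chromosome 10, 63319005 to 63381704, minus strand), a deacetylase of p53, FOXO factors and PGC-1alpha, was the steadiest member. Its highest library was 1.46 times its lowest over all 20, against 3.34 times for Sirt6 and 3.24 times for Sirt7. NP vehicle libraries held 10.7, 11.4, 10.4, 10.9 and 10.7, and NP MDL-800 libraries 10.9, 11.3, 10.6, 9.21 and 9.95. AF vehicle libraries held 12.5, 11.1, 12.6, 12.8 and 12.5, and AF MDL-800 libraries 11.0, 12.2, 13.4, 10.5 and 13.3. Means were 10.8 ± 0.376, 10.4 ± 0.840, 12.3 ± 0.699 and 12.1 ± 1.33 in the same order. MDL-800 and vehicle differed by -0.06 in NP (SE 0.08, 95% interval -0.22 to 0.11; limma adjusted p = 0.801) and by -0.03 in AF (SE 0.10; adjusted p = 1.00). The NP value of Sirt1 lay under the AF value by -0.17 with vehicle (SE 0.08; limma adjusted p = 0.106) and by -0.20 with MDL-800 (SE 0.10; adjusted p = 0.0997). Dnajc12 starts on the other strand, 739 bases from the outermost GENCODE start of Sirt1 (63381704). The RefSeq window of Sirt1 described above lies elsewhere, at 63338986 to 63339285, so Dnajc12 is not next to it. Between treatments in NP, Dnajc12 differed by 0.02 (limma adjusted p = 0.985). Neither tissue difference of Sirt1 passed. Without scaling both did, at -0.23 (adjusted p = 0.0465) and -0.27 (adjusted p = 0.0339), as did the vehicle difference with no filter (adjusted p = 0.0232) or with the GC trend removed (-0.26, adjusted p = 0.0181) and the MDL-800 difference with all 4 groups in the fit (adjusted p = 0.0405). Under quantile normalization the sign turned (0.11 and 0.07).

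The cytoplasmic member Sirt2 (ENSMUSG00000015149, chromosome 7, 28766735 to 28788661, plus strand), a tubulin deacetylase, was at 45.3, 35.2, 34.0, 42.9 and 47.6 in NP vehicle libraries. NP MDL-800 libraries held 47.4, 50.4, 49.6, 59.0 and 56.6, and 4 of the 5 exceeded the highest vehicle library. AF vehicle libraries held 37.2, 44.2, 38.4, 29.1 and 33.6, and AF MDL-800 libraries 42.4, 30.1, 34.9, 41.4 and 40.5, an almost complete overlap. Under MDL-800 every NP library was above every AF library.

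Sirt2 averaged 41.0 ± 6.08 and 52.6 ± 4.96 in NP (SD, n = 5 each). The difference between MDL-800 and vehicle was 0.36 (SE 0.11, 95% interval 0.12 to 0.60; limma adjusted p = 0.157) and did not pass. In AF it was 0.05 (SE 0.14; adjusted p = 1.00), and the tissues' effects differed by 0.31 (SE 0.17; adjusted p = 1.00). With MDL-800, Sirt2 was higher in NP than in AF by 0.47 (SE 0.11; limma adjusted p = 0.00334), in all 10 fits without a single library (adjusted p 0.00316 to 0.0108). With vehicle the difference of the tissues was 0.16 (SE 0.13; adjusted p = 0.324), and with upper-quartile scaling it was 0.35 and passed (adjusted p = 0.0429). Nfkbib overlaps Sirt2 on the other strand with 42 shared exon bases of 5035, and it averaged 5.79 in NP with vehicle and 9.52 with MDL-800 (log2 difference 0.66, limma adjusted p = 0.115). The kit keeps the strand, but whether counting used it is not given in the sources used here.

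Among the mitochondrial members, Sirt3 (ENSMUSG00000025486, chromosome 7, 140863666 to 140882309, minus strand) encodes the main deacetylase of the mitochondrial matrix. It was at 8.61, 9.57, 8.61, 10.8 and 9.78 in NP vehicle and at 12.4, 9.50, 13.2, 11.9 and 15.7 in NP MDL-800, where library 18 alone lay within the vehicle range. In AF vehicle it was at 9.52, 11.6, 7.93, 7.46 and 8.96, and in AF MDL-800 at 9.48, 6.63, 9.59, 9.09 and 11.6. The NP means were 9.47 ± 0.905 and 12.5 ± 2.24 (SD, n = 5 each), a difference of 0.36 (SE 0.12; limma adjusted p = 0.213) that did not pass. In AF the difference was 0.02 (SE 0.16; adjusted p = 1.00), and the tissues' effects differed by 0.34 (SE 0.20; adjusted p = 1.00). With MDL-800, Sirt3 was higher in NP than in AF by 0.40 (SE 0.15; limma adjusted p = 0.0414), but this held in only 2 of 10 omissions, those of NP MDL-800 library 18 and AF MDL-800 library 30 (adjusted p 0.0175 to 0.1002). With AF MDL-800 library 27, of low GC slope, left out it was 0.29 (adjusted p = 0.0832), without scaling 0.32 (adjusted p = 0.105), and with no filter the adjusted p was 0.0722. With vehicle the difference was 0.06 (SE 0.13; adjusted p = 0.697), and with quantile normalization it was 0.38 and passed (adjusted p = 0.0223). Psmd13 and Ric8a overlap Sirt3 on the other strand, with 342 and 418 shared exon bases of 5973. Ric8a was higher in NP under MDL-800 by 0.51 (limma adjusted p = 0.00447) and Psmd13 was lower by -0.30 (adjusted p = 0.0118).

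Sirt4 (ENSMUSG00000029524, chromosome 5, 115478010 to 115484725, minus strand), which acts on glutamate dehydrogenase and the pyruvate dehydrogenase complex, was at 6.42, 7.74, 5.19, 7.93 and 8.46 in NP vehicle and at 6.68, 8.06, 8.74, 9.09 and 7.70 in NP MDL-800. In AF vehicle it was at 5.98, 7.66, 5.07, 4.28 and 6.10, and in AF MDL-800 at 7.20, 6.47, 5.38, 8.29 and 7.60. All 4 groups overlapped. The difference between MDL-800 and vehicle was 0.16 in NP (SE 0.13; limma adjusted p = 0.635) and 0.24 in AF (SE 0.15, 95% interval -0.11 to 0.58; adjusted p = 1.00), and that between NP and AF was 0.26 with vehicle (SE 0.16; adjusted p = 0.201) and 0.19 with MDL-800 (SE 0.12; adjusted p = 0.207). The tissue differences of Sirt4 passed under other scalings, at 0.42 and 0.36 with upper-quartile scaling (adjusted p = 0.0426 and 0.0262) and at 0.67 and 0.53 with quantile normalization (adjusted p = 0.00460 and 0.00384).

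Sirt5 (ENSMUSG00000054021, chromosome 13, 43365496 to 43395203, plus strand), the mitochondrial desuccinylase, was at 10.3, 9.11, 12.1, 9.67 and 8.09 in NP vehicle and at 8.81, 9.47, 9.68, 8.43 and 9.93 in NP MDL-800. AF vehicle libraries held 7.47, 8.39, 8.59, 10.1 and 8.74, and AF MDL-800 libraries 8.32, 9.41, 7.30, 9.59 and 8.67. These 4 groups overlapped as well. MDL-800 and vehicle differed by -0.07 in NP (SE 0.10, 95% interval -0.30 to 0.16; limma adjusted p = 0.814), and in AF the means were 8.66 ± 0.958 and 8.66 ± 0.920. Between NP and AF the difference was 0.16 with vehicle (SE 0.12; adjusted p = 0.279) and 0.09 with MDL-800 (SE 0.09; adjusted p = 0.418). Those of Sirt5 passed as well, at 0.33 and 0.27 with upper-quartile scaling (adjusted p = 0.0429 and 0.0365) and at 0.47 and 0.40 with quantile normalization (adjusted p = 0.00868 and 0.00499).

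**Figure D3:**
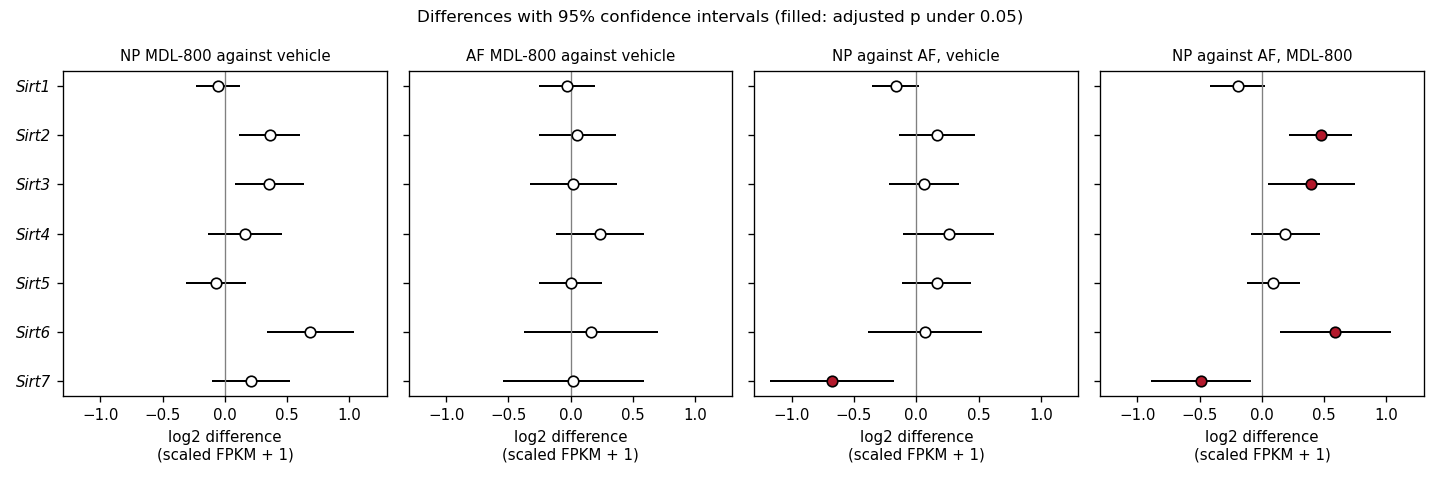
Log2 differences of scaled FPKM + 1 (horizontal axis) with 95% confidence intervals for the 7 sirtuins in 4 comparisons of 5 against 5 libraries, with filled points at a limma adjusted p under 0.05. No point is filled for MDL-800 against vehicle in either tissue, Sirt7 is filled in NP against AF with vehicle (-0.68), and Sirt2, Sirt3, Sirt6 and Sirt7 are filled in NP against AF with MDL-800.

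Over the family, MDL-800 changed 0 of 7 sirtuins past the limma threshold in NP, where 0.250% of all genes tested were called. At an unadjusted p under 0.05 there were 3 sirtuins (Sirt2, Sirt3 and Sirt6), and 2311 of the 16383 genes tested. The median difference of the 7 was 0.21 against -0.03 for all genes tested. Above 0 were 5 of 7 differences, and 6982 of the 16383. With the GC trend of each library removed, Sirt2, Sirt3, Sirt4, Sirt6 and Sirt7 were at 0.29, 0.45, 0.11, 0.44 and 0.08. Sirt1 and Sirt5 were then at 0.05 and 0.02. The summed sirtuin level in NP was 94.97 ± 8.09 scaled FPKM with vehicle and 115 ± 6.23 with MDL-800 (SD, n = 5 each), of which Sirt2 made up 41.0 and 52.6. In AF, 0 of 7 sirtuins were called, as were 0.00% of all genes (270 at an unadjusted p under 0.05, none of them a sirtuin). The median of the 7 was 0.02 against 0.01, and the sums were 96.7 ± 11.9 and 100.2 ± 13.6. The test of the difference between the tissues' effects called 0 of 7 sirtuins and 0.00% of genes (611 genes and 0 sirtuins at an unadjusted p under 0.05).

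Between NP and AF with vehicle, 1 of 7 sirtuins was called, lower in NP, where 55.7% of all genes tested were called (21.8% higher and 33.9% lower). With MDL-800, 3 were called higher and 1 lower, where 62.8% of genes were called (25.6% higher and 37.2% lower). The totals of 1 of 7 and 4 of 7 did not exceed the shares of all genes called. The 3 of 7 called higher with MDL-800 lay above the share of genes called higher, but 7 genes are too few to read this as a trait of the family. Of the 3, Sirt3 held in only 2 of 10 omissions. Which sirtuins were called with vehicle depended on the scaling: Sirt7 here, Sirt2, Sirt4 and Sirt5 with upper-quartile scaling, and Sirt3, Sirt4, Sirt5 and Sirt6 with quantile normalization. With MDL-800, both of those scalings gained the calls of Sirt4 and Sirt5 and lost that of Sirt7. These 2 tissue comparisons use different libraries throughout, while each shares its libraries with the treatment comparisons. The scaling moved the balance: with vehicle, 3577 genes were higher and 5550 lower, and with quantile normalization 6474 and 3925, as the median gene shifted from -0.08 to 0.20. Relative to the median gene, Sirt7 with vehicle was at -0.59 (-0.63 with quantile normalization), and with MDL-800 Sirt2 was at 0.55 (0.37) and Sirt6 at 0.67 (0.76).

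AF differed from NP in its other cells as well. All tested markers of skeletal muscle (5), red blood cells (6), neutrophils (5), macrophages (5), bone (5), fat (3), endothelium (5), nerve (4) and B and plasma cells (3) were called lower in NP with both treatments. Neutrophil markers, for example, summed to 183 to 2695 scaled FPKM in NP vehicle and 6364 to 16414 in AF vehicle, and muscle markers to 9.58 to 1012 and 846 to 7410. Cartilage markers went both ways: of 5, 2 were called higher and 2 lower in NP with both treatments. None of these markers was at 0 in all libraries of a group, and none was called between treatments in NP or AF. The part of these cells in the tissue differences of Sirt2, Sirt3, Sirt6 and Sirt7 was not tested. In such bulk libraries fewer cells of a type and less RNA per cell cannot be told apart.

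Among the companions of the sirtuins, 0 genes of 8 pathway lists were called between treatments in either tissue, where 0.250% of all genes were called in NP and 0.00% in AF. Between NP and AF, the counts below stand against 21.8% of all genes called higher and 33.9% lower with vehicle, and 25.6% and 37.2% with MDL-800. Of 11 tested genes listed under NAD supply, Nnmt among them, 0 were higher and 6 lower in NP, with vehicle and with MDL-800. That total was near the 55.7% and 62.8% of all genes called. The one with the smallest p was Nnmt, at 0.253 ± 0.204 scaled FPKM in NP vehicle and 6.68 ± 3.22 in AF vehicle (log2 difference -2.54, SE 0.25; limma adjusted p = 2.07e-05). It methylates nicotinamide rather than supplying NAD. Its NP means were under 1 FPKM (0.0654 with MDL-800), so it passed the filter on low values through AF libraries. Of 7 other NAD-consuming enzymes, 1 was higher and 3 lower with vehicle, and 2 and 3 with MDL-800, where 55.7% and 62.8% of all genes were called. Tnks, a tankyrase, was higher in NP vehicle at 22.8 ± 1.74 against 15.8 ± 0.968 (log2 difference 0.50; limma adjusted p = 0.000562). Cd38, an NAD glycohydrolase of immune and other cells, was lower at 1.18 ± 0.440 against 6.22 ± 1.37 (log2 difference -1.73; limma adjusted p = 3.06e-05). In NP its means lay near the filter limit of 1 FPKM (0.796 with MDL-800), so AF libraries carried it past that filter.

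Glycolytic genes known to be repressed by SIRT6 or driven by HIF1A were mostly called higher in NP: 6 of 8 were higher and 1 lower with vehicle (21.8% and 33.9% of all genes), and 5 and 1 with MDL-800 (25.6% and 37.2%). Pdk1, a kinase that restrains pyruvate dehydrogenase, was at 61.7 ± 5.18 in NP vehicle and 31.1 ± 6.38 in AF vehicle (log2 difference 0.98; limma adjusted p = 0.000155). Slc2a1, a glucose transporter, was at 817 ± 153 in NP MDL-800 and 107 ± 62.1 in AF MDL-800 (log2 difference 3.07; limma adjusted p = 1.30e-05). Pfkm, the muscle phosphofructokinase, was lower in NP (vehicle -1.39, limma adjusted p = 0.00897). Between treatments in NP, where Sirt6 was at 5.03 and 8.49, this list had 0 of 8 genes called. Its median difference was -0.09, against -0.03 for all genes. At an unadjusted p under 0.05 there was 1 of 8, and 2311 of the 16383 genes tested.

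Of 11 tested mitochondrial substrates of the sirtuins, 1 was higher and 6 lower in NP with vehicle, and 2 and 7 with MDL-800 (55.7% and 62.8% of all genes were called). Idh2, the NADP-dependent isocitrate dehydrogenase deacetylated by SIRT3, was higher, at 100.2 ± 15.0 against 56.0 ± 9.41 with vehicle (log2 difference 0.83; limma adjusted p = 0.000467). Acss1, a mitochondrial acetyl-CoA synthetase, was lower, at 0.727 ± 0.508 in NP vehicle and 7.70 ± 0.995 in AF vehicle (-2.37; limma adjusted p = 9.02e-06). The NP means of Acss1 were under 1 FPKM (0.615 with MDL-800), so AF libraries carried it past the filter on low values. Of 8 nuclear substrates and partners, 0 were higher and 2 lower with vehicle, and 1 and 3 with MDL-800, under the 55.7% and 62.8% of all genes called. Trp53, which encodes p53, was at 15.0 ± 1.97 in NP vehicle and 26.8 ± 5.69 in AF vehicle (log2 difference -0.78; limma adjusted p = 0.00114). Rela, the NF-kB subunit whose target promoters SIRT6 acts on, was higher in NP than AF under MDL-800 (0.56; limma adjusted p = 0.00198). Of 3 regulators of SIRT1, 1 was lower in both comparisons: Hic1, a repressor of the Sirt1 gene, at 0.0501 ± 0.0629 in NP vehicle and 1.55 ± 0.185 in AF vehicle (log2 difference -1.28; limma adjusted p = 8.28e-06). Hic1, near 0 in NP, passed the filter on low values through AF libraries.

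By correlation of log2 values within each tissue (Pearson's r over 10 libraries, the smaller of the 2 tissues deciding), Sirt6 was most like Mid1ip1 (0.97 in NP and 0.97 in AF) and Unc45a (0.97 and 0.96). Sirt7 was most like Reep4 (0.95 and 0.97) and Fbxl6 (0.95 and 0.96). These 4 genes have a GC content of 56.3% to 59.7%, near that of Sirt6 (58.4%) and Sirt7 (55.6%), and all points share the GC slope of their library. Sirt2 was most like Wbp2 (0.90 and 0.93) and Eef2 (0.90 and 0.90), and Rab1b was among the genes most like Sirt3 (0.89 and 0.86). The closest genes were less close for Sirt1 (Med14, 0.78 and 0.81, and Phlpp2, 0.78 and 0.79), Sirt4 (Iscu, 0.79 and 0.83, and Gstm1, 0.77 and 0.75) and Sirt5 (Lmod3, 0.81 and 0.80, and Psmc2, 0.85 and 0.80). Within the family, Sirt6 and Sirt7 had an r of 0.72 in NP and 0.88 in AF, and Sirt1 and Sirt2 one of -0.56 and -0.54. These are descriptions over libraries that differ in treatment and GC slope.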

How the data were processed

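Per the labels' protocols, 50 ng of RNA went into each stranded total RNA library, with ribosomal RNA depleted and 14 PCR cycles. The authors deposited a table of FPKM values with a column for each of 20 libraries, and STAR 2.7.11b and mm10 are named in the submitters' processing notes. The counting program and annotation are not given in the sources used here. FPKM values were divided by a median-ratio factor (0.933 to 1.06, from the 11308 genes that reached 1 FPKM in each library), and genes that reached it in 5 or more libraries were kept. On log2(scaled FPKM + 1), pairs of groups were compared with limma 3.58.1 under R 4.3.3 (eBayes, trend on), two-sided, and p-values were adjusted by Benjamini-Hochberg over 16383 genes. The difference of the treatment effects was tested in a model that held all 4 groups. Tables were made with Python 3.11.15, and the fits were tested on simulated data. For MDL-800 against vehicle in NP, with 200 genes changed, 26.5% of log2 changes of 0.5 and 81% of changes of 1 were found. A sirtuin change of 0.5 or less in NP could therefore be missed.

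Depth was estimated from 6641 single-exon genes of 400 to 1200 nucleotides, where 68.1% to 73.6% of low values fell on steps of 1 fragment (at most 13.1% for random values). No pair of libraries held identical values (0 pairs). Coordinates, GC content and overlaps are from GENCODE M21 (51596 of 51789 identifiers matched; 99.8% of genes tested have a GC content), on GRCm38, the build that mm10 names. The rule named all sirtuins, for each list the called gene with the smallest p in each direction (the text gives the clearest of these), the 2 genes most like each sirtuin, and genes that overlap one or start within 1 kb of its start. A gene that the rule names is not reported here. The members, the 8 pathway lists and the 12 marker lists were chosen with earlier results of these data known. Alternatives covered pseudocount, filter, scaling, fit, weights, GC trend and single-library omissions.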

Additional observations from a re-analysis of the deposited data

Results flagged for a closer look

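Sirt1 in AF vehicle library 9 stood apart from its group: it was at 11.1 scaled FPKM, the lowest of 5, where the others were at 12.5, 12.6, 12.8 and 12.5. Its gap to the nearest library was 0.811 of the whole range of the group, above Dixon's critical value of 0.71 for 5 values. It was the only one of 28 combinations of sirtuin and group to do so. Chance gives about 1 in 20 for each combination, so 1 among 28 is not above what chance gives.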

How the results depend on the processing

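Sirt6 in NP kept its direction under every alternative and omission run, and the effect of MDL-800 on the family did not pass in NP except that 1 of 7 sirtuins was called with 1 FPKM in all libraries. In that fit 230 of 11308 genes were called. In NP against AF with vehicle, 1 was called, and this became 2 without scaling, 3 with upper-quartile scaling, 4 with quantile normalization, 2 with the GC trend removed and 0 to 1 over omissions. Of all 16383 genes, 9127 were called, against 8974 without scaling, 9631 with upper-quartile scaling and 10399 with quantile normalization. With the GC trend removed 9414 genes were called, and over omissions 8291 to 9138. With MDL-800, 4 were called, and this became 2 without a filter, 2 to 4 over omissions and 1 with a replicate block, which held 3 pairs: Sirt2 passed at 0.639 (adjusted p = 0.0142), while Sirt6 (0.749, adjusted p = 0.1004), Sirt3 and Sirt7 did not. Of all genes with MDL-800, 10290 of 16383 were called, against 12123 of 32358 without a filter, 9572 to 10283 over omissions and 7858 with the block. Sirtuin calls were also gained with MDL-800: Sirt1 without scaling and with all 4 groups in the fit, and Sirt4 and Sirt5 with upper-quartile scaling and with quantile normalization. The block used the second number in the column names, which vehicle libraries and some treated ones share between tissues. Whether it marks an animal is not stated. Same-numbered libraries correlated, in their deviations from the group means, between -0.18 and 0.29, so the pairing was not shown, and the block was added after seeing the data, as was leaving out libraries of low GC slope.

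Signs turned for small differences. In NP, MDL-800 against vehicle was 0.0482 for Sirt1 and 0.0165 for Sirt5 with the GC trend removed, and -0.0141 for Sirt7 without low-slope libraries. In AF, Sirt5 was 9.3e-05 without scaling, 0.0154 with array weights, 0.0166 with the GC trend removed and 0.0232 without low-slope libraries, and Sirt7 was -0.0499 with array weights and -0.0060 with the GC trend removed. Over AF omissions Sirt1 ran from -0.065 to 0.0167, Sirt2 from -0.0225 to 0.131, Sirt3 from -0.0561 to 0.126, Sirt5 from -0.0472 to 0.0524 and Sirt7 from -0.160 to 0.183. Sirt1 in NP against AF was 0.0063 (upper quartile) and 0.107 (quantile) with vehicle and 0.0731 (quantile) with MDL-800. Sirt6 with vehicle ran from -0.0663 to 0.210 over omissions. For the difference of effects, Sirt1 was 0.0498 with the GC trend removed, Sirt7 was -0.0172 without low-slope libraries, and omissions ran from -0.0724 to 0.0111 for Sirt1 and from -0.168 to 0.0138 for Sirt4. The cause was not tested.

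The count of all genes called in NP, 41, was 7 without a filter, 230 with 1 FPKM in all libraries, 18 without scaling, 70 with quantile normalization, 4 with all groups in the fit, 18 without the trend and 11 without low-slope libraries. Depth limits Sirt6 most, with as few as 86 estimated fragments.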

Other observations

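Of the zinc-dependent deacetylases, the other class of lysine deacetylases, 11 were tested. Between NP and AF 1 was higher and 6 lower in NP with vehicle, and 1 and 7 with MDL-800, where 55.7% and 62.8% of all genes were called. Hdac11 was higher in NP, at 16.0 ± 1.89 against 8.13 ± 2.74 scaled FPKM with vehicle (SD, n = 5 each; log2 difference 0.94, limma adjusted p = 0.00178), and Hdac7 was lower, at 2.64 ± 0.5999 against 11.5 ± 2.38 (log2 difference -1.77, adjusted p = 1.38e-05). In NP, 0 of 11 were called between treatments. At an unadjusted p under 0.05 there were 4 of 11, and 2311 of the 16383 genes tested.

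Of 8 tested genes of the RNA polymerase I machinery, on whose activity SIRT7 acts, 1 was higher and 3 lower in NP than AF with vehicle. With MDL-800 these were 1 and 5, where 55.7% (vehicle) and 62.8% (MDL-800) of all genes were called. Rrn3, an initiation factor of that polymerase, was at 25.0 ± 0.530 in NP vehicle and 19.4 ± 1.70 in AF vehicle (log2 difference 0.35, limma adjusted p = 0.00370), while Sirt7 was at 11.6 and 19.6. Polr1d, a subunit, was at 29.4 ± 1.94 and 41.1 ± 4.43 (log2 difference -0.46, adjusted p = 0.00168).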
